A study of Mus musculus with 67 samples.

Results

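The classical cadherin loci were taken here as the accessible elements that the authors' HOMER annotation, which gives each element the gene with the nearest transcription start site, assigned to Cdh1, Cdh2, Cdh4, Cdh6, Cdh7, Cdh8, Cdh10, Cdh11, Cdh13 or Cdh20. Of the 111638 elements with accessibility values, 241 met this rule, from 6 at Cdh8 to 46 at Cdh6. A further 46 elements annotated to these genes were without values in the table used here. The nearest start site need not belong to the gene that an element regulates, and distances below are from the annotated start site, with a minus sign for upstream.

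Accessibility was measured in mouse HM1 embryonic stem cells differentiated in culture, by CaTS-ATAC, in which cells are fixed, stained for intracellular transcription factors and sorted before a transposase cuts their open chromatin. Neuromesodermal progenitors (NMPs) were taken at day 3, after culture with bFGF, the Wnt pathway activator CHIR99021 and the inhibitors SB-431542 and DMH1. Neural progenitors (NPs) came from the same protocol, continued from day 3 in 100 nM retinoic acid with 0, 10, 100 or 500 nM of the Shh agonist SAG, and were sorted at days 4, 5 and 6 as p0-1, p2, pMN or p3, the ventral domains of the neural tube from the more dorsal p0-1 to the most ventral p3. p0-1 came from 0 and 10 nM SAG, p2 from 10 and 100 nM, and pMN and p3 from 100 and 500 nM, and libraries of both concentrations were combined within a type. Since p0-1 shared no concentration with pMN or p3, cell type and SAG concentration cannot be told apart in those comparisons. NMPs had 3 libraries and each group of NPs 4 to 6, which were treated as separate samples. Libraries of both concentrations share replicate numbers, and at day 6 every pMN and p3 library carried number 2 or 3. Combined libraries are therefore not fully independent. Standard errors and adjusted p values below do not allow for this and may be too small.

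Cadherins are calcium-dependent adhesion proteins whose cytoplasmic tails bind catenins and, through them, actin. Type I cadherins such as Cdh1 (E-cadherin, of epithelia and pluripotent cells), Cdh2 (N-cadherin, of neural progenitors and neurons) and Cdh4 (R-cadherin) tend to bind their own kind, and the type II cadherins Cdh6, Cdh7, Cdh8, Cdh10, Cdh11 and Cdh20 mark regions and motor neuron pools in the nervous system. Cdh13 (T-cadherin) lacks the cytoplasmic tail and is held by a lipid anchor. As cells take a neural fate, the neural plate replaces Cdh1 with Cdh2.

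The sequences shown are the central 300 bases of elements on which the results turn: the Cdh1 element at the start site, which lost accessibility after the NMP stage, the intronic Cdh1 element that gained it, the Cdh6 element that gained it in all NP types, and 4 elements that differed between NP types. They were read from the plus strand of RefSeq's GRCm38.p6 by the mm10 coordinates of the files, and none overlapped an exon of RefSeq. Capitals mark matches on either strand to 8 short motifs: CAGGTG (E-box of SNAI and ZEB factors), CATCTG (E-box of OLIG2), TGTTTAC (FOX), TTTATNG (CDX), ATCAAAG (TCF/LEF), AACAATG (SOX), TCAAGTG (NKX2) and TAATTA (homeodomain). No matches overlapped each other in these windows.
Cdh1 +439 bp, intron 1, chr8:106603640-106603939: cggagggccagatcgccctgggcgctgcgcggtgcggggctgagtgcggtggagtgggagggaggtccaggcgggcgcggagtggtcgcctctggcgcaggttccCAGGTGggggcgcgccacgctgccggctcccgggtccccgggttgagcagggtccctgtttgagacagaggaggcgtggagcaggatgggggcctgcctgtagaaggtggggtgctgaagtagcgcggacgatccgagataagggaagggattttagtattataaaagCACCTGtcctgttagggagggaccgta
Cdh1 +33.2 kb, intron 2, chr8:106636439-106636738: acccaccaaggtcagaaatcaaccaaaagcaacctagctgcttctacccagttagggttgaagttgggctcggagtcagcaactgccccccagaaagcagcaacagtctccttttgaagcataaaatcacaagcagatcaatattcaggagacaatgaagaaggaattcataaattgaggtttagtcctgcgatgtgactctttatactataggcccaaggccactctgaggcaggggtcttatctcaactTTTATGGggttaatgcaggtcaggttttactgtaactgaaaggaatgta
Cdh6 −39.1 kb, intergenic, chr15:13212644-13212943: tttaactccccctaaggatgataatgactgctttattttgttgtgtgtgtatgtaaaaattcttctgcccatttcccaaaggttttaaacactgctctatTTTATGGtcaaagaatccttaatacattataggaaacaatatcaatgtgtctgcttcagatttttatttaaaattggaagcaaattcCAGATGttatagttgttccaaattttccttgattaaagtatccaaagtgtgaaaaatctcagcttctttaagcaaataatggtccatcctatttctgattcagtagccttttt
Cdh6 −1317 kb, intergenic, chr15:14490888-14491187: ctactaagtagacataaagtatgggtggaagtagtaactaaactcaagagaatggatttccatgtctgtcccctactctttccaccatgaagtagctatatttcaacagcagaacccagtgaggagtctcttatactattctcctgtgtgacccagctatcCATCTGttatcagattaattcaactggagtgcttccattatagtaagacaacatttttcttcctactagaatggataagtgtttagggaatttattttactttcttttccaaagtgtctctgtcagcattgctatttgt
Cdh11 +76.4 kb, intron 2, chr8:102708581-102708880: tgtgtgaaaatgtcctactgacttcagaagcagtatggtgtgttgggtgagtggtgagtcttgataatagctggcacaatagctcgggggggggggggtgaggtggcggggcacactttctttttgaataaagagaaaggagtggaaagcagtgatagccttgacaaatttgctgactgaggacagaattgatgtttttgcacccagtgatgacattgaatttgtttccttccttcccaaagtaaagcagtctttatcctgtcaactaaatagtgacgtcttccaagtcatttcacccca
Cdh11 +688 kb, intergenic, chr8:102096545-102096844: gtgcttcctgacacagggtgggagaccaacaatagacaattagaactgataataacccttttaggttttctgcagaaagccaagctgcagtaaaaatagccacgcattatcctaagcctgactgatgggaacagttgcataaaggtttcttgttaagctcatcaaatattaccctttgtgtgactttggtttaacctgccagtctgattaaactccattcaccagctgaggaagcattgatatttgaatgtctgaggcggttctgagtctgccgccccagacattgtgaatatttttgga
Cdh13 +64.8 kb, intron 1, chr8:118348263-118348562: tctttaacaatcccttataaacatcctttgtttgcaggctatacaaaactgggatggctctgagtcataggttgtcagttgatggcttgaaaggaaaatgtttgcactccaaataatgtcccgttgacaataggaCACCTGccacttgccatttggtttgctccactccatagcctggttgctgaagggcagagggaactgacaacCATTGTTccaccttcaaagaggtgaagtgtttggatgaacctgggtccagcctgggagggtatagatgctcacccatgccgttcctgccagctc
The Cdh1 start-site window held 2 matches to the SNAI and ZEB E-box, and the Cdh11 windows held none to any of the 8 motifs. Among the 57 cadherin elements with a mean above 100 normalized counts over all samples, the share with the letters in their central 300 bases was 12.3% for CAGGTG, 19.3% for CATCTG, 0% for TGTTTAC, 17.5% for TTTATNG, 3.51% for ATCAAAG, 17.5% for AACAATG, 1.75% for TCAAGTG and 7.02% for TAATTA. The shares among all 31744 elements above the same level were 18.6%, 18.5%, 3.24%, 9.33%, 3.31%, 5.67%, 3.12% and 5.34%. These are descriptions of letters and were not tested.

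The cadherin elements lay far from start sites. Their median distance was 156523 bp against 32610.5 bp for all elements, and 66% lay beyond 100 kb against 24.0%. Intergenic elements made up 53.5% of them (129) and intronic elements 43.6% (105), with 5 annotated as promoters (2.07%, against 7.41% of all elements). Their median width of 739 bp compared with 883 bp over all elements. Cdh1, Cdh8, Cdh11 and Cdh13 are on chromosome 8, Cdh7 and Cdh20 on chromosome 1, Cdh6 and Cdh10 on chromosome 15, Cdh4 on chromosome 2 and Cdh2 on chromosome 18. The start site used by the annotation matched that of RefSeq to within 3 kb for 9 of the 10 genes, but for Cdh13 it lay 144 kb downstream, at a shorter transcript. The Cdh8 element at +735 bp is annotated as the promoter of A330008L17Rik.

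The 67 libraries held 9298160 to 29985325 reads in elements, with a median of 20254011. Squared correlations between replicates were 0.875 to 0.976. Start-site elements of the markers T and Cdx2 went from 1175 and 3686 normalized counts in NMPs to at most 148.9 and 336.4 at day 6, and at day 6 Olig2 was highest in pMN (2325, against at most 1005 elsewhere), Foxa2 in p3 (1662) and Dbx1 in p0-1 (2549). Not every marker was highest in its own type at day 6. The p3 marker Nkx2-9 was at 2091 in pMN and 1914 in p3. Of the p2 markers, Irx3 was highest in p0-1 (3014, against 2566 in p2) and Nkx6-1 in pMN (2586, against 2431 in p2). No element was annotated to Nkx2-2. Cells of a bulk library are averaged, so fewer cells with an open element and less accessibility in each cell cannot be told apart.

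Accessibility is given as normalized counts, that is, reads in the element divided by the size factor of the library. The element nearest each start site was open in every group (the plot of start-site elements by sample). Per kb of element and averaged over all samples, Cdh2 was the most accessible at 679 normalized counts per kb, followed by Cdh4 (449), Cdh6 (342), Cdh13 (341), Cdh10 (265), Cdh7 (204), Cdh11 (192), Cdh8 (155), Cdh1 (139) and Cdh20 (110). The ratio of the highest to the lowest group mean was 15.9 at Cdh1, between NMPs (1739 normalized counts) and pMN at day 6 (109.6). It was 4.66 at Cdh20, 3.47 at Cdh8, 2.99 at Cdh7 and 2.12 at Cdh11, and between 1.29 and 1.81 at Cdh2, Cdh4, Cdh6, Cdh10 and Cdh13. At Cdh10 the nearest element was an intronic one of 415 bp at +1199 bp. The element annotated as the Cdh10 promoter, at −1307 bp, varied more. Its mean was 365 in NMPs, 160 to 210 at day 4 and 433 in p0-1 at day 6. The highest mean was that of NMPs at Cdh1, Cdh8, Cdh10, Cdh11, Cdh13 and Cdh20, and that of p0-1 at day 6 at Cdh2, Cdh4 and Cdh7. Elements of the whole series were also higher in NMPs, with a median log2 change of −0.46 to day 4. The mean changes of −0.55 at Cdh13 and −0.29 at Cdh10 were near that or smaller.

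**Figure D1:**
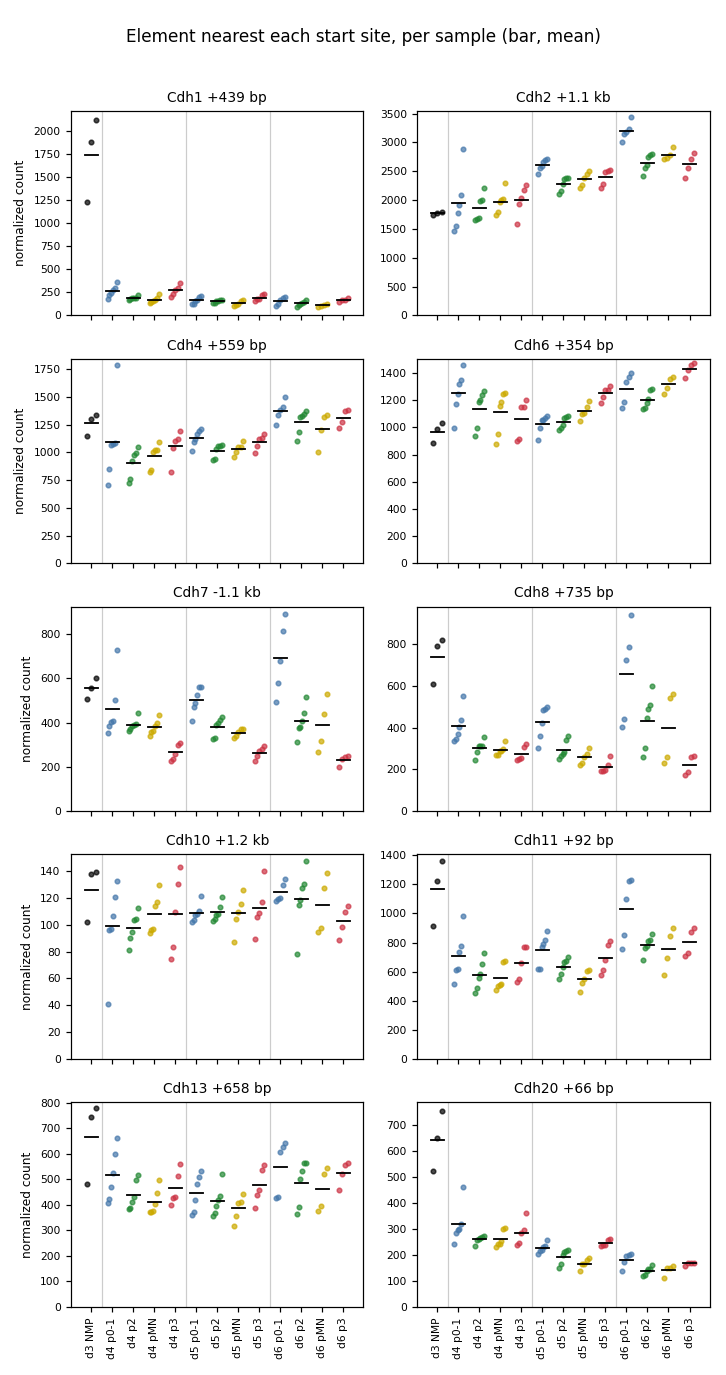
Normalized counts of the element nearest the start site of each cadherin gene in every library, by day and cell type, with bars at group means. The Cdh1 element falls from 1739 in NMPs to 171 to 271 at day 4, while the Cdh2 element stays between 1769 and 3199.

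The comparison of NMPs with each NP type at day 4 asks which cadherin elements change as cells leave the NMP state. Each comparison was tested by a limma fit over all elements whose mean in the compared libraries exceeded 100 normalized counts, and an element was called with an adjusted p under 0.01 and a fold above 4. The 4 fits share the NMP libraries and are not independent. Of the 241 cadherin elements 47 passed this filter in at least 1 fit, and 33 of these were called, 25 higher and 8 lower at day 4. Over all 34557 elements tested, 28.7% were called, 20% higher and 8.66% lower. The median log2 change, with the 4 fits pooled and each element counted once per fit that tested it, was 2.98 for the cadherin elements. For all elements tested it was −0.46. Since members that were low in NMPs passed the filter only through their level at day 4, the count is not evidence of a direction. Counts of elements by p alone, without the fold, are given below without the share of all elements. They are therefore no result about the cadherin elements. Fold changes below are log2 ratios of group means of normalized counts plus 1, and standard errors (SE) are those of the difference on the deposited log2 scale.

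Of the 10 start-site elements only that of Cdh1 was called, and it fell. In NMPs this element (chr8:106602904-106604674) held 1222, 1881 and 2112 normalized counts, a mean of 1739 ± 462 (SD, n = 3). At day 4 it held 176 to 358 (median 262) in the 6 p0-1 libraries, 166 to 221 (median 187) in p2, 133 to 235 (median 160.3) in pMN and 202 to 355 (median 279) in the 5 p3 libraries. Every NMP library lay above every NP library. The log2 change was −2.72 in p0-1 (SE 0.22, adjusted p = 1.4e-07), −3.21 in p2 (SE 0.15, 1e-10), −3.34 in pMN (SE 0.18, 2.4e-10) and −2.67 in p3 (SE 0.18, 1.3e-09). Start-site elements of the pluripotency markers Pou5f1 and Nanog (2 of 2 markers with an element) were lower after the NMP stage as well, with sums of 1696 and, in the 4 day 4 groups, 109.6 to 148, and the part of pluripotent cells in the Cdh1 values was not tested.

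Of the 6 Cdh1 elements tested, 5 fell and 1 rose, all 6 within 34 kb of the start site (the profile across the Cdh1 locus). The element at +5.2 kb fell from 308 normalized counts in NMPs to between 15.2 and 34.5, that at +7.7 kb from 472 to between 21.9 and 57.2, and that at +29.2 kb from 587 to between 50.6 and 61. The element at +15.4 kb fell from 1333 ± 306 to 299 in p0-1 (log2 −2.15), 211 in p2 (−2.65) and 191 in pMN (−2.80), and its value of 374 in p3 was short of the fold threshold (−1.83). The summed accessibility of all 9 Cdh1 elements was 4845 ± 869 in NMPs and 990.3 ± 180.4 to 1611 ± 183 at day 4.

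The Cdh1 element that rose was the farthest from the start site, at +33.2 kb in intron 2 (chr8:106635386-106637791). It held 55.3, 77.6 and 82.9 normalized counts in NMPs. At day 4 it held 479 to 866 (median 668) in p0-1, 455 to 603 (median 572) in p2, 383 to 503 (median 492) in pMN and 631 to 889 (median 647) in p3. The lowest NP library, at 383, was above the highest NMP library, and the log2 changes were 3.20, 2.91, 2.67 and 3.28 (SE 0.14 to 0.20, adjusted p from 1.7e-11 to 1.2e-08). Accessibility thus fell and rose at elements of the same gene, whose start-site element fell.

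**Figure D2:**
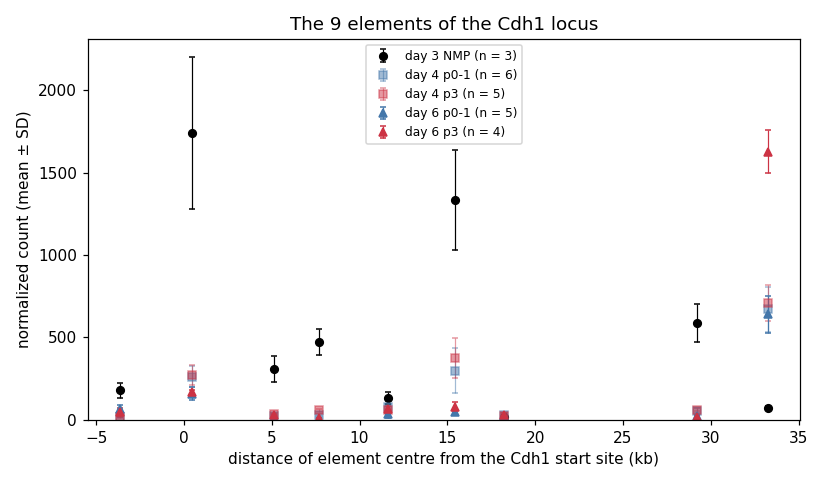
Mean normalized counts with SD of the 9 Cdh1 elements by distance from the start site in kb, in NMPs and in p0-1 and p3 at days 4 and 6. NMPs are highest at the start site (1739), and p3 at day 6 is highest at +33.2 kb (1627).

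At Cdh2 the start-site element did not pass the test and the distal elements tested rose. These were low in NMPs and passed the filter only through their level at day 4, so their count is not evidence of a direction. The start-site element, at +1.1 kb in intron 1, held 1740.3, 1767 and 1798 normalized counts in NMPs and means of 1946 in p0-1, 1866 in p2, 1971 in pMN and 1995 in p3 at day 4. The groups overlapped, with log2 differences of 0.08 to 0.17 and adjusted p between 0.11 and 0.63. Relative to the median element, which fell by 0.46, the difference was 0.56 on centred samples, with a smallest adjusted p of 1.8e-06 over the 4 fits. Of 7 Cdh2 elements tested, 6 rose.

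The largest rise at Cdh2 was at +515 kb, an intergenic element downstream of the gene (chr18:16293102-16294514). It held 2.42, 7.54 and 9.44 normalized counts in NMPs, and at day 4 422 to 1668 (median 1224) in p0-1, 1016 to 1543 (median 1226) in p2, 1016 to 1259.5 (median 1123) in pMN and 493 to 936 (median 829) in p3. NMPs and NPs did not overlap, and the log2 changes were 7.21, 7.38, 7.25 and 6.67 (SE 0.38, 0.18, 0.15 and 0.22). The other Cdh2 elements that rose were intronic or downstream as well. Mean normalized counts went from 3.1 to between 287 and 359 at +463 kb, from 37 to between 484 and 735 at +139 kb in intron 2 (chr18:16669761-16671664), from 7.64 to between 394 and 546 at +134 kb, from 22.9 to between 248 and 439.6 at +105 kb, and to at least 143 from 16.4 at +95.6 kb in the fits that tested it. The summed accessibility of the 37 Cdh2 elements was 2302 ± 116 in NMPs and 5276 ± 465 to 6188 ± 740 at day 4, the opposite order to Cdh1.

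Tested distal elements of type II cadherins rose likewise. Those low in NMPs had again passed the filter only through day 4, so the counts per gene below are not evidence of a direction. At Cdh6, a cadherin of kidney and neural tissue, 6 of 7 tested elements rose. The largest rise was at −39.1 kb (chr15:13212025-13213561), where NMPs held 12.1, 23 and 36.6 normalized counts and day 4 NPs 517 to 1439 (median 1094) in p0-1, 1078 to 1585 (median 1394) in p2, 1426 to 1784 (median 1667) in pMN and 927 to 1664 (median 1439) in p3, without overlap with NMPs (log2 5.37, 5.75, 6.04 and 5.79). The other 5, at −103, −194, −220, −664 and −1285 kb, rose from means of 2.38 to 10.2 in NMPs to means of 148 to 911 in the fits that called them.

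At Cdh11, 2 of 3 tested elements rose. The element at +58.2 kb, in intron 1 (chr8:102726352-102727412), held 7.54, 14.8 and 19.4 normalized counts in NMPs and means of 790.2 ± 255 in p0-1, 890.2 ± 181 in p2, 1056 ± 212 in pMN and 887 ± 167 in p3. No NP library was below 463, and the log2 changes were 5.73 to 6.15. The element at −278 kb rose from 18 to between 161 and 332.

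At Cdh20, 4 of 6 tested elements rose, and at Cdh7 3 of 4. The Cdh20 element at +80.1 kb, in intron 1 (chr1:104847994-104849310), held 4.85, 14 and 14.8 normalized counts in NMPs and 153 to 752 (median 564) in p0-1, 482 to 786 (median 578) in p2, 492 to 712 (median 596) in pMN and 141 to 364 (median 330.0) in p3, again without overlap (log2 5.37, 5.62, 5.60 and 4.56). The intergenic Cdh7 element at +244 kb (chr1:110227697-110228305) had 0 reads in all 3 NMP libraries and means of 180.4, 164, 154 and 162 normalized counts in p0-1, p2, pMN and p3. Against a floor of 3 reads per NMP library it was at least 49.6-fold higher in p0-1, 45.1-fold in p2, 42.3-fold in pMN and 44.4-fold in p3. Repeats cover 70.8% of this element, and reads of repeats can map to several copies. Without replicate 1 its mean was too low to be tested. The Cdh7 element at +464 kb rose from 2.6 to between 276 and 455.

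Falls and rises both occurred at Cdh4 and Cdh13. The intronic Cdh4 element at +128 kb (chr2:179569358-179571878) fell from 798, 886 and 1010.3 normalized counts in NMPs to means between 144 and 160.3 (log2 −2.48 to −2.63), and that at +249 kb rose from 13.1 to between 146 and 189.9 in p2, pMN and p3. The Cdh13 element at +2.8 kb fell from 260.4 to between 41.7 and 59.4, that at +406 kb fell from 349 to 75.3 and was called in p3 alone (log2 −1.66 without replicate 3, −1.77 on centred samples), and that at −208 kb rose from 9.65 to between 146 and 202 in the 3 fits that tested it. At Cdh10 the intergenic element at −10.9 kb (chr15:18809195-18809699) rose from 4.27 ± 4.5 to 157 in p0-1 and 159.5 in p2, and without replicate 1 it was too low to be tested. The 1 tested element of Cdh8, at its start site, went from 739 to 408, 304, 292 and 275 (log2 −0.86 to −1.42), short of the fold threshold.

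Most start-site elements were short of the fold threshold (the plot of changes by gene). Of the 10, 7 had an adjusted p under 0.01 in at least 1 fit but only Cdh1 passed the fold threshold. No contrast with distal elements is drawn, since many of those passed the filter on the mean only through their level at day 4. The log2 differences were −1.02 to −1.31 at the start site of Cdh20, −0.72 to −1.06 at that of Cdh11 and 0.14 to 0.38 at that of Cdh6, where no fit reached an adjusted p under 0.01. For Cdh4 and Cdh10 the mean log2 change of −0.33 and −0.29 became 0.09 and 0.14 once each sample was centred on its median, so their direction depends on the scaling. The element annotated as the Cdh10 promoter, at −1307 bp, had a mean log2 change of −0.99 and was not called.

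**Figure D3:**
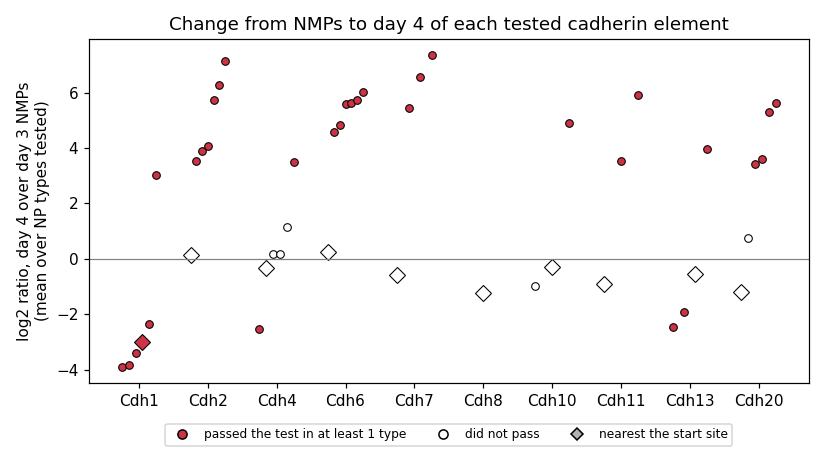
Log2 ratio of day 4 NPs to NMPs, averaged over the NP types tested, for each of the 47 tested cadherin elements by gene, with diamonds for the elements nearest the start sites and filled points for those called in at least 1 type. The diamond of Cdh1 is the lowest of the 10 and the only filled one, and 5 of the 6 Cdh1 elements lie below 0.

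The comparison of day 4 with day 6 within each NP type follows the elements as progenitors mature. Of 71 cadherin elements tested, 25 were called in at least 1 type, 22 higher and 3 lower at day 6. Over all 38725 elements tested, 17% were called, 13.6% higher and 3.37% lower. Elements that were low on either day passed the filter only through the other day, so these counts are not evidence of a direction. None of the 10 start-site elements was among those called. At any fold, 56 of the 71 elements had an adjusted p under 0.01 by limma, 6 of the 10 start-site elements among them. Called elements numbered 8 at Cdh6 (6 higher, 2 lower), 7 at Cdh11, 3 at Cdh2, 2 each at Cdh7 and Cdh20, and 1 each at Cdh1, Cdh4 and Cdh10.

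The largest rises were at Cdh11 and the largest fall was at Cdh6. The intergenic Cdh11 element at −28.9 kb (chr8:102813722-102814244) held 5.89 to 43.9 (median 22.7) normalized counts in p0-1 at day 4 and 688, 702, 750.3, 827 and 954 at day 6. In p2 it went from 20.3 to 48.1 (median 26.2) to 504 to 679 (median 554), and in pMN from 23.6 to 36.5 (median 27.1) to 302, 448, 475 and 598. The days did not overlap in any of these types, with log2 changes of 4.99, 4.21 and 3.97. In p3 the means were 16.3 and 73.7, too low to be tested.

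Other Cdh11 elements opened late in some types. The element at +76.4 kb rose from 94.6 to 634 in p0-1, from 98.9 to 619 in p2 and from 95.9 to 598 in pMN. In p2 and pMN, +189 kb rose from 77.5 to 496 and from 113 to 1113, +679 kb from 3.22 to 201 and from 5.24 to 304, and +681 kb from 33.1 to 183 and from 35.5 to 493. Repeats cover 80.8% of the element at +679 kb. Elements at +42.9 and +688 kb were called in pMN alone, from 76.8 to 465 and from 31.6 to 231. Without replicate 2 the elements at +679 and +688 kb were too low to be tested, and without replicate 3 the log2 change at +42.9 kb was 1.46. Start-site elements of the neuron markers Tubb3, Elavl3 and Isl1 summed to 2196 in p2 and 2206 in pMN at day 4 and to 4309 and 4117 at day 6. In NMPs at day 3 the same sum was 3900. The part of neurons in the rises at Cdh11 was not tested.

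The Cdh10 element at −10.9 kb rose in all 4 NP types, from 35.4 to 328 (median 142) to 912, 964, 1022, 1023 and 1063 in p0-1, from 159.5 to 842 in p2, from 108 to 750.4 in pMN and from 72.6 to 421 in p3 (log2 2.65, 2.39, 2.79 and 2.52). It was near its day 6 level by day 5, with means of 889, 784, 622 and 455. The intergenic Cdh20 element at −272 kb (chr1:104495953-104496839) rose from 119.9 to 1009 ± 183 in p0-1, from 163 to 1163 ± 117 in p2 and from 162 to 1265 ± 16.6 in pMN, and was at 77.6 and 284 in p3. At Cdh6 the rises included −1285 kb, from 148, 155 and 172 to 826, 643 and 784 in p0-1, p2 and pMN, and −19.7 kb, from 126, 113 and 95.2 to 638, 695 and 526 in the same types. Without replicate 2 the call of −1285 kb was lost (adjusted p = 0.011). At Cdh2 the element at +34.0 kb rose from 90.7 to 463 in p0-1, from 68.1 to 374 in pMN and from 113 to 521 in p3, but without replicate 3 its log2 change was at most 1.73. In p2 its log2 change was 1.99, just short of the fold threshold.

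Of the 3 falls, that of the intergenic Cdh6 element at −103 kb (chr15:13275177-13277576) occurred in every type. It had risen from 9.65 normalized counts in NMPs, stood at 348 to 934 (median 588) in p0-1 at day 4, 201 to 354 (median 277) at day 5 and 45.6 to 101 (median 53.6) at day 6. The day 6 means in p2, pMN and p3 were 63.2, 71.9 and 82.7, after 549, 457 and 486 at day 4 (log2 −3.07 in p0-1, −3.10 in p2, −2.65 in pMN and −2.54 in p3). It was thus highest at day 4, in contrast to its neighbour at −39.1 kb, which held 1532 ± 357 in p0-1 and 2105 ± 481 in pMN at day 6. The Cdh6 element at −194 kb fell in p0-1 (from 233 to 44), and the Cdh1 element at +15.4 kb fell in all types, to between 45.6 and 78.3, continuing from its decline after the NMP stage (log2 −2.02 to −2.60).

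Start-site elements changed by less than 4-fold in this interval. That of Cdh2 rose from 1946 to 3199 ± 161 normalized counts in p0-1, from 1866 to 2648 ± 153 in p2, from 1971 to 2789 ± 89.5 in pMN and from 1995 to 2619.6 ± 188 in p3. The libraries of the 2 days did not overlap (log2 0.72, 0.51, 0.50 and 0.39, adjusted p between 2.1e-05 and 0.0055), against a median over all elements of 0.23. The log2 differences were −0.52 to −0.71 at the start site of Cdh1 and −0.77 to −0.90 at that of Cdh20.

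The comparison of p3 with each of the other NP types on the same day asks where cadherin accessibility separates the most ventral progenitors. The p3 libraries are shared by the 3 fits of a day, and an element is counted when at least 1 of these fits called it. At day 4, 0 of 47 tested cadherin elements were called by limma, where 2.35% of all elements were, although 27 had an unadjusted p under 0.05 and 1 was called by voom and without replicate 3 (Cdh6 −664 kb each time, lower in p3 than in pMN by 2.04 with voom). At a fold above 2, 8 were lower in p3 and 0 higher, where 7.5% of all elements were lower. At day 5, 8 of 64 were called, 7 lower and 1 higher in p3 (10.1% of all elements, 7.2% lower and 2.9% higher). At day 6, 19 of 72 were called, 16 lower and 3 higher (16.9% of all elements, 9.93% lower and 6.99% higher). Elements that were low in either type of a fit passed the filter only through the other type, so these counts are not evidence of a direction. No start-site element was called on any day.

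The largest differences at day 6 that all 3 fits called were at Cdh6 −19.7 kb and Cdh11 +76.4 kb (the plot of distal elements by sample). The Cdh6 element (chr15:13192973-13193760) held 20.4, 24.3, 39.6 and 46.8 normalized counts in p3, against 412, 513, 624, 694 and 947 in p0-1, 603 to 879 (median 657) in p2 and 374, 466, 518 and 745 in pMN. All p3 libraries lay below all others, with log2 differences of −4.24, −4.37 and −3.96. The Cdh11 element (chr8:102708281-102709180) held 12.6, 23.1, 37.6 and 77.5 in p3, against 404, 492, 662, 801 and 809.7 in p0-1, 507 to 810.1 (median 547) in p2 and 415, 483, 647 and 848 in pMN. Here too the groups were apart, by −4.04 (SE 0.36, adjusted p = 7.7e-06), −4.00 (SE 0.31, 1.3e-06) and −3.95 (SE 0.39, 4.1e-05). At day 4 its means were 31.5 in p3 and 94.6 to 98.9 in the others.

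Some elements had opened in p3 at day 4 and were lower later. The Cdh20 element at +80.1 kb held 287 ± 90.1 normalized counts in p3 at day 4, 229 ± 25 at day 5 and 23.3, 62.1, 98.2 and 137 at day 6. At day 6 it held 820.2 ± 142 in p0-1, 615 ± 95.8 in p2 and 520.0 ± 98.4 in pMN, so that p3 was apart from each by −3.34, −2.92 and −2.68. The Cdh2 element at +139 kb showed the same order. It held 484 ± 107, 286 ± 71.3 and then 120.1, 136, 179 and 241 in p3, and 659 to 1097 (median 1044), 638 to 898 (median 836) and 669 to 872 (median 746) in p0-1, p2 and pMN at day 6, without overlap (log2 −2.45, −2.26 and −2.16).

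In a test of the difference between the day 4 to day 6 changes of p3 and of another type, chosen after seeing the data and fitted over the 4 groups, 7 of 54 cadherin elements were called against p0-1 (3.4% of all elements), 3 of 56 against p2 (2%) and 3 of 59 against pMN (1.87%). Cdh11 +76.4 kb and Cdh6 −19.7 kb were called against all 3 types. Cdh20 +80.1 kb and Cdh2 +139 kb were called against p0-1, with a change in p3 lower by 2.66 and 2.05 on the deposited log2 scale.

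The 16 elements called lower in p3 at day 6 in at least 1 fit were at Cdh2, Cdh4, Cdh6, Cdh7, Cdh11 and Cdh20. The Cdh11 element at −28.9 kb held 33, 76.3, 83.2 and 102 normalized counts in p3, below every library of p0-1 (784), p2 (569.9) and pMN (456), and Cdh7 +482 kb held 51.4 against 358, 354 and 455. Cdh4 +79.8 kb was at 31.6 in p3 and 242 and 295 in p0-1 and p2, Cdh7 −760 kb at 53.4 against 295 in p2 and 419.9 in pMN, and Cdh20 −272 kb at 284 against 1163 and 1265. The Cdh6 element at −1317 kb held 1.94, 2.31, 3.3 and 6.1 in p3, against 117, 159, 192, 234 and 249 in p0-1, where the log2 difference was −5.44 (SE 0.25, adjusted p = 5.5e-07). It was intermediate in p2 and pMN, at 114 and 31, which were too low to be tested against p3, and without replicate 1 the same held for p0-1.

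The 3 elements called higher in p3 at day 6 in at least 1 fit were at Cdh13 and Cdh6. Cdh13 +64.8 kb, in intron 1 (chr8:118347974-118348851), held 174, 197, 201 and 258 normalized counts in p3, 14.7 to 70.1 (median 31.4) in p2 and 35, 36.1, 45.1 and 54.9 in pMN. The groups did not overlap (log2 2.54 and 2.25), and p0-1, at 6.76 to 14.5, was lower still but its mean with p3 did not pass the filter. The element was higher in every p3 library at day 4 already, at 89.1, 103, 125, 177 and 191 against at most 49.4 in the other types, and NMPs held 10.8, 22.6 and 30.3. Cdh6 −43.6 kb was at 432 in p3 and 73.9 in p2, and Cdh6 −1672 kb at 200.5 in p3 and 32.4 in p0-1, where it was too low to be tested without replicate 2. Their levels in the remaining types are not given, so p3 is not shown to stand apart from all types there. From day 4 to day 6 the log2 change at Cdh6 −43.6 kb was 2.53 in p0-1, 0.97 in p2, 1.50 in pMN and 2.24 in p3. At Cdh6 elements of both kinds were present on the same side of the start site.

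The Cdh1 element at +33.2 kb was also higher in p3, by less than the 4-fold threshold. At day 6 it held 1482, 1611, 1612 and 1801 normalized counts in p3, 515, 588, 618, 671 and 811 in p0-1, 293 to 718 (median 441) in p2 and 432, 433, 453 and 561 in pMN. No library of another type reached the lowest p3 library, and the log2 differences averaged 1.64 over the 3 fits. At day 5 the means were 1001 in p3 and 782, 565 and 537 in p0-1, p2 and pMN. The Cdh1 start-site element held 148, 165, 171 and 184 in p3 at day 6 and 107, 129, 168, 190.2 and 202 in p0-1, which overlapped. Start-site elements of Cdh7 (232 in p3 against 691 in p0-1) and Cdh8 (220.2 against 658) had log2 differences of −1.57 and −1.58.

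Markers of other cells were followed in the element nearest each marker's start site. In the mesoderm list (3 of 3 markers with an element) the members went in different directions. In p3 at day 6 Meox1 held 855.8 normalized counts against 273.7 to 368.8 in the other types, the element assigned to Msgn1, which lay far upstream of it, 121.0 against 33.62 to 48.79, and Tbx6, the lowest of all types in p3, 692.5 against 766.6 to 857.3. The list summed to 1669 against 1088 to 1254. In the neural list (2 of 2) Pax6 held 1696 in p3 against 3208 to 3889 and Sox1 2258 against 2461 to 2701. The neuron list Tubb3, Elavl3 and Isl1 (3 of 3) summed to 3249 in p3 and 3126, 4309 and 4117 in p0-1, p2 and pMN, the endoderm list Sox17, Gata4 and Gata6 (3 of 3) to 578.7 against 548.0 to 654.4, and the neural crest list Sox10, Foxd3 and Tfap2a (3 of 3) to 519.3 against 636.0 to 741.9. None of these 5 lists was at 0, the Gata6 element was far from its start site, and the part of such cells in the differences was not tested.

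**Figure D4:**
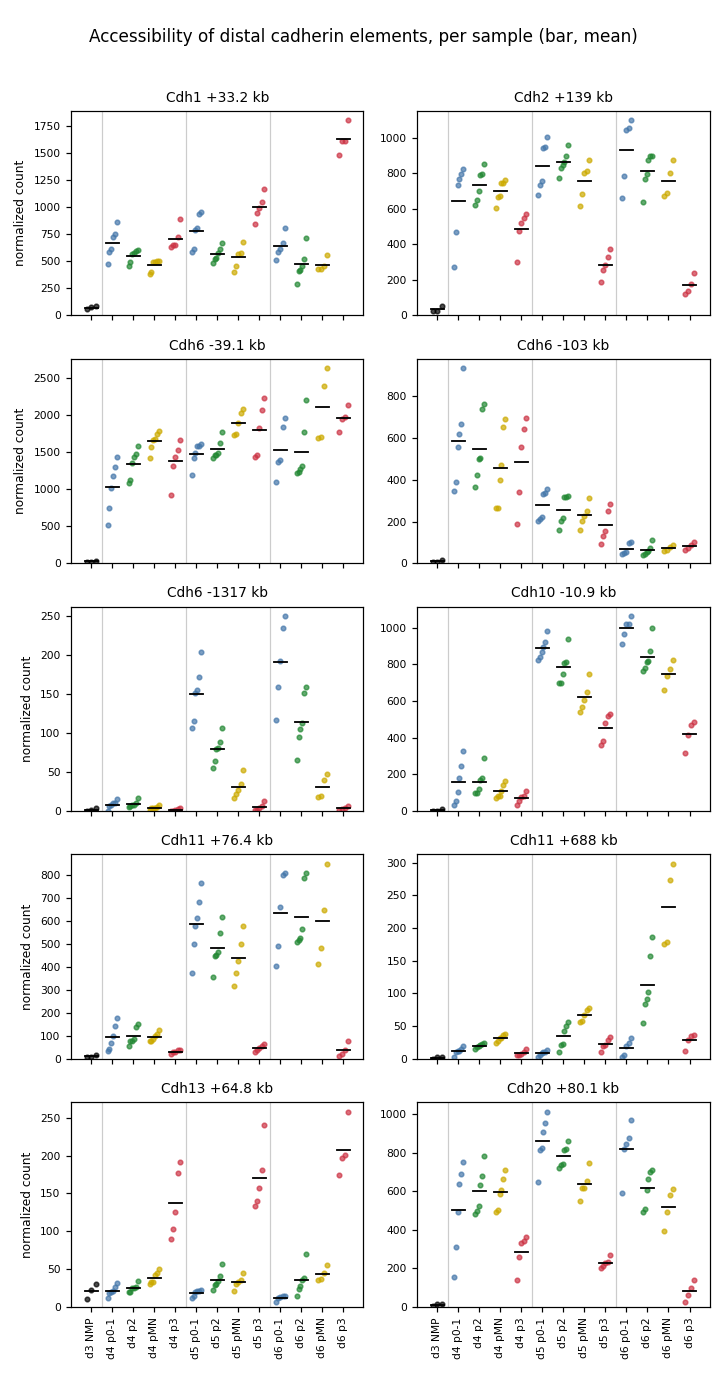
Normalized counts of 10 distal cadherin elements in every library, by day and cell type, with bars at group means. At Cdh11 +76.4 kb the p3 libraries stay low at day 6 (mean 37.7) while p0-1, p2 and pMN reach 598 to 634, and at Cdh13 +64.8 kb p3 is the highest (mean 208).

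Among p0-1, p2 and pMN few cadherin elements differed. By limma, 0 of 47 were called at day 4 (0.492% of all elements) and 0 of 63 at day 5 (1.93%), and voom called 0 on each day. At day 5 the fit without replicate 1 called 1 (Cdh11 +42.9 kb, higher in pMN than in p0-1 by 2.01) and that without replicate 3 called 1 (Cdh6 −1317 kb, −2.12). At an unadjusted p under 0.05 there were 18 and 41, and 5 and 27 had an adjusted p under 0.01 with a smaller fold. At day 6, 4 of 72 were called, 3 higher and 1 lower in the more ventral type (3.31% of all elements, 2.52% and 0.821%). The filter on the mean acts here as it does for p3, so these counts are not evidence of a direction.

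All 3 that were higher were at Cdh11, a cadherin of mesenchyme and of neurons, and all were highest in pMN. At +688 kb, an intergenic element (chr8:102096354-102097035), p0-1 held 2.97, 5.89, 19.8, 24.2 and 31.3 normalized counts, p2 55.5 to 187 (median 96.8) and pMN 175, 179, 274 and 298. p0-1 was below every library of p2 and pMN, and pMN exceeded p0-1 by 3.70 (SE 0.37, adjusted p = 0.00014), while p2 and pMN overlapped. Without replicate 2 the mean was too low for a test. At +189 kb (chr8:102595614-102596990) the means were 154 ± 53.7 in p0-1, 496 ± 127 in p2 and 1113 ± 253 in pMN, and pMN exceeded p0-1 by 2.84. At +42.9 kb (chr8:102741818-102742558) pMN held 228, 239, 595 and 795, against 80.4, 80.4, 93, 106 and 111 in p0-1 and 52.1 to 168 (median 92.1) in p2 (log2 2.29 and 2.27). Without replicate 3 the log2 difference was at most 1.47, and voom gave an adjusted p of 0.014. The neuron marker sum at day 6, 3126 in p0-1, 4309 in p2 and 4117 in pMN, was also lowest in p0-1, and the part of neurons in these differences was not tested.

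The element lower in pMN was Cdh6 −1317 kb (chr15:14490565-14491509). Its libraries held 117, 159, 192, 234 and 249 normalized counts in p0-1, 65 to 158 (median 109) in p2 and 17.5, 18.8, 40.1 and 47.5 in pMN, without overlap between p0-1 and pMN (log2 −2.58, SE 0.29, adjusted p = 0.00024). Group means at day 6 thus fell in the order of dorsal to ventral position, from 190.2 in p0-1 to 3.41 in p3. The summed accessibility of all 30 Cdh11 elements at day 6 was 5689 ± 846 in p0-1, 6072 ± 825 in p2, 8170 ± 507 in pMN and 4584 ± 1059 in p3.

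**Figure D5:**
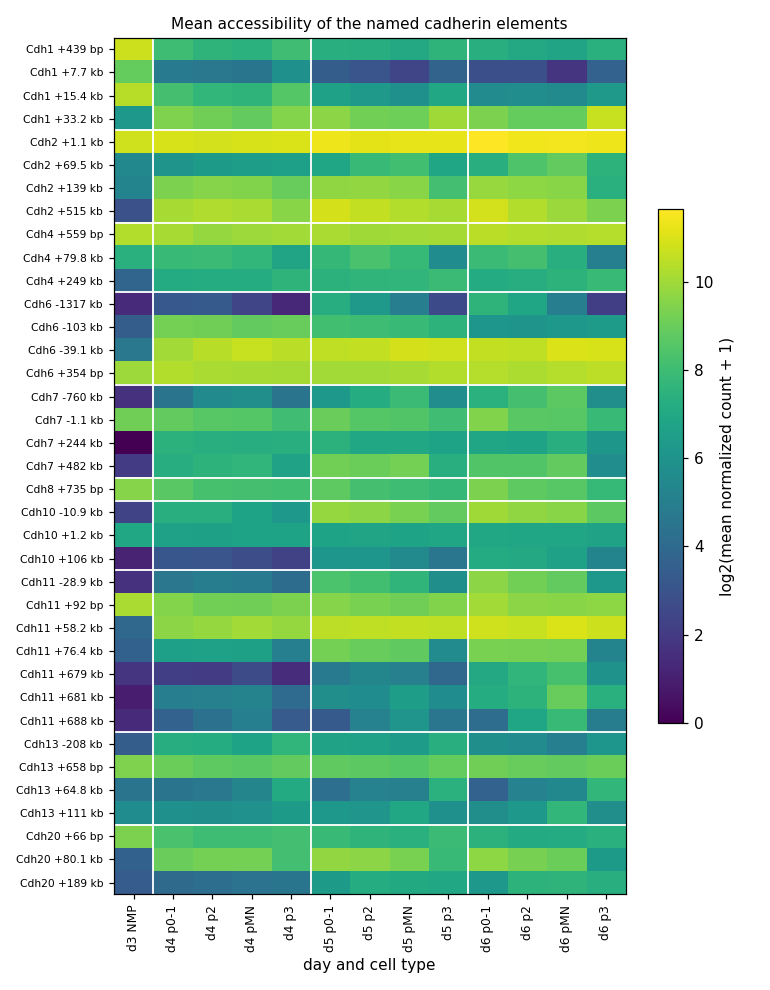
Log2 of mean normalized counts plus 1 for the 37 named cadherin elements (rows, by gene) in the 13 groups (columns, from NMPs at day 3 to p3 at day 6). Rows were chosen for their changes, so their number in each direction is not a finding. The start-site row of Cdh1 is highest in NMPs (1739) and the row of Cdh1 +33.2 kb in p3 at day 6 (1627).

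The same NP type from 2 SAG concentrations was compared at day 5 with a fold threshold of 2. By limma 0 of 79 cadherin elements were called (0.00251% of all elements), and none had an adjusted p under 0.01, although 18 had an unadjusted p under 0.05. voom called 0. With the replicate number as a block, 1 cadherin element was called, where 2.08% of all elements were: the intergenic Cdh20 element at −60.7 kb held 121, 124 and 176 normalized counts in p0-1 from 0 nM SAG and 50.8, 75.8 and 76.3 from 10 nM (log2 −1.04). Its adjusted p was 0.00041 with the block and 0.078 without. With the block and at any fold, limma gave an adjusted p under 0.01 for 18 of the 69 elements away from the start sites. It did so for 0 of the 10 start-site elements. The share of all elements at that cut-off is not given here.

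Other genes of cadherin adhesion were followed in lists. They passed through the same filter on the mean, so their counts are not evidence of a direction. Catenins, which link cadherins to actin, had 62 elements, of which 18 were tested between NMPs and day 4. Of these 6 rose and 3 fell, where 28.7% of all elements were called, 20% higher and 8.66% lower. The Jup element at +10.9 kb (plakoglobin, a catenin of desmosomes) fell from a mean of 541 normalized counts to between 16 and 20.9, and the Ctnnd1 element at +17.7 kb (p120-catenin) from 475 to between 32 and 38.5. The Ctnnd2 element at +337 kb (the catenin of neurons) rose from 6.2 to between 420.5 and 572. Regulators of cadherin transcription had 30 elements, of which 1 of 15 tested rose and 3 fell, all at Snai1, which encodes a repressor of Cdh1. The Snai1 element at +2.4 kb fell from 444 to between 53.4 and 68.5, and that at +5.7 kb from 546 to between 83.1 and 128. Of the 141 elements at other classical cadherins, 24 were tested, 3 rose and 4 fell, among them the start-site element of Cdh3 (P-cadherin, the neighbour of Cdh1), at +436 bp, from 1297 to between 204 and 298. Between days 4 and 6, 4 of 23 tested catenin elements rose and 1 fell, 1 of 15 regulator elements rose, and 5 of 28 at other classical cadherins rose, where 13.6% of all elements rose and 3.37% fell.

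Between p3 and the other types at day 6, 4 of 22 tested catenin elements were higher and 3 lower, 0 of 14 regulator elements were called by limma (10 with an unadjusted p under 0.05), and 1 of 26 elements at other classical cadherins was higher and 4 lower, where 6.99% of all elements were higher and 9.93% lower. The Cdh26 element at +232 kb was the one higher, at a mean of 556 normalized counts in p3 against 5.14, 50.3 and 26.9 in p0-1, p2 and pMN.

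The start-site elements whose pattern was most like those of the cadherins were found by Pearson's r over the 25 condition means on the deposited log2 scale, among 6977 promoter elements. Conditions share depth and day, so r is given as a description. Cdh1 was most like Mirc35hg (0.978), D930020B18Rik (0.977) and Surf2 (0.975), Cdh2 most like Adgrl3 (0.971), Hmgb1 (0.967) and Asxl3 (0.964), and Cdh11 most like Cadps2 (0.971). Cdh7 was less closely matched, by Gm1976 (0.93), Sgip1 (0.899) and, as the next, the element of Cdh8 (0.894). Weaker still were the best matches of Cdh6 (Pth1r, 0.767) and of the Cdh10 element at +1199 bp (Lrif1, 0.682).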

How the data were processed

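The deposited table held 111638 consensus elements as log2 values, the authors' DESeq2 variance-stabilizing transformation (VST) of counts divided by size factors. MACS, DESeq2 and mm10 are named in the submitters' processing notes, and distances come from the authors' HOMER annotation. Inverting the VST gave whole reads in every library (largest distance from a whole number 5.98e-11, for values below 1000 reads) and from these normalized counts. Because the deposited unit was log2, limma 3.58.1 (R 4.3.3) with a variance trend was fitted to the VST values of all elements, with only the groups compared and a mean above 100 normalized counts over them. P values were two-sided and Benjamini-Hochberg adjusted over all elements tested. Calls needed an adjusted p under 0.01 and a fold above 4 (2 for SAG), from means plus 1. Tables and figures used Python 3.11.15, numpy 2.4.6, pandas 2.3.3, pysam 0.24.0 and matplotlib 3.10.9.

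The cadherin genes and the other lists were chosen with earlier results of these data known. Named elements were, per gene, the one nearest the start site and those with the largest change from NMPs to day 4, difference of p3 at day 6 and difference between p0-1 and pMN at day 6, with the 3 largest rises and falls between days 4 and 6. Others are named because the fits called them. Titles gave the replicate numbers, and those in the description differ for 15 samples. Replicate numbers stand for separate differentiations as far as the sources say. Same-numbered libraries deviated together from their group means (r above 0.1 for every pair) in all comparisons within day 5 or day 6, but not between NMPs and day 4, where the lowest r was −0.35. Between SAG concentrations of a type at day 5 their median r was 0.57 to 0.74. Without replicate 2 or without replicate 3, the day 6 pMN and p3 libraries left all carried the same replicate number. Other settings tried were the thresholds, the filter, the block, centring, voom on recovered reads, the variance trend and leaving out each replicate. Some genes or samples of the study were not analysed here, and a list of cell markers is not reported here. Intervals from counting alone were not used, since the spread between libraries carries the error.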

Additional observations from a re-analysis of the deposited data

Results flagged for a closer look

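The change from day 4 to day 6 in p3 was tested against that in each other type, on the deposited log2 scale, with limma and over the 4 groups. The change in p3 was lower than in p0-1 by 3.06 at Cdh11 −28.9 kb (−3.06), 2.697 at Cdh11 +76.4 kb (−2.697), 2.66 at Cdh20 +80.1 kb (−2.66), 2.37 at Cdh7 +482 kb (−2.37), 2.26 at Cdh6 −19.7 kb (−2.26) and 2.05 at Cdh2 +139 kb (−2.05), and it was higher by 2.28 at Cdh6 −1672 kb. Against p2 the difference was −2.23 at Cdh11 −28.9 kb, −2.51 at Cdh11 +76.4 kb and −2.46 at Cdh6 −19.7 kb, and against pMN it was −2.43 at Cdh11 +76.4 kb, −2.25 at Cdh6 −19.7 kb and −2.03 at Cdh7 +482 kb. All had an adjusted p under 0.01. The p3 libraries are shared by the 3 tests.

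A single library stood far from the rest of its group, by Dixon's test, in 4 of 174 groups of named elements, and chance alone flags about 1 in 20 groups. These were 561 normalized counts at Cdh1 +33.2 kb in pMN at day 6 (the others 432 to 453), 1790.0 at Cdh4 +559 bp in p0-1 at day 4 (706 to 1090), 461 at Cdh20 +66 bp in p0-1 at day 4 (243 to 320) and 63.7 at Cdh1 +15.4 kb in p2 at day 6 (47.1 to 51.2).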

How the results depend on the processing

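Counts of called cadherin elements depended most on the thresholds. The counts here compare settings only. Shares of all elements called under the other settings are not set beside them, so they are no result about the cadherin elements. Without the filter on the mean they were 142 between NMPs and day 4 (33 with it), 102 between days 4 and 6 (25), 12, 48 and 70 for p3 at days 4, 5 and 6 (0, 8 and 19), and 2, 13 and 22 among p0-1, p2 and pMN at days 4, 5 and 6 (0, 0 and 4). With a fold above 2 they were 44 between days 4 and 6, 8, 25 and 46 for p3, and 2, 5 and 14 among the other types. For p3 at day 4, where limma called 0 and 27 had an unadjusted p under 0.05, voom and a threshold on the VST scale each called 1, and so did the fit without replicate 3: Cdh6 −664 kb each time. Among p0-1, p2 and pMN at day 5 (0 by limma and voom, 41 at an unadjusted p under 0.05) the fit without replicate 1 called 1, Cdh11 +42.9 kb, and that without replicate 3 called 1, Cdh6 −1317 kb. Leaving out each replicate in turn gave 31 to 34 calls between NMPs and day 4, 22 to 30 between days 4 and 6, 0 to 1, 8 to 9 and 17 to 26 for p3 at days 4, 5 and 6, 0 to 0, 0 to 1 and 4 to 5 among the other types, and 0 to 0 between SAG concentrations. The replicate block gave 1 call between SAG concentrations in place of 0, by either set of replicate numbers, and the same counts elsewhere. Samples centred on their median gave 18 higher and 5 lower elements between days 4 and 6, in place of 22 and 3. Of 355 values of named elements under the alternatives, 349 kept their direction and side of the threshold. The change from NMPs to day 4 turned at Cdh4 +559 bp (0.092 on centred samples) and at Cdh10 +1.2 kb (0.14 on centred samples and 0.0062 with voom, from −0.29), and 3 passed a threshold they had missed, Cdh13 +111 kb between p0-1 and pMN at day 6 without replicate 3 (2.13) and Cdh13 −208 kb between days 4 and 6 with voom (−1.89) and without replicate 3 (−2.03). Beside the losses given with the results above, calls were lost without replicate 3 at Cdh4 +97.5 kb (1.86), Cdh6 −43.6 kb (1.89) and Cdh2 +69.5 kb (1.99) between days 4 and 6 and at Cdh11 +286 kb (−1.79), Cdh11 +679 kb (−1.92) and Cdh2 +105 kb (−1.89) for p3 at day 6, and at Cdh11 +42.9 kb (−1.79) without replicate 2 for p3 at day 5. Calls were lost because the mean fell below the filter at Cdh20 −272 kb from NMPs to day 4 (without replicate 1), at Cdh20 +189 kb (without replicate 2) and Cdh6 −248 kb (without replicate 3) between days 4 and 6, at Cdh13 +64.8 kb for p3 at day 5 (without replicate 3), and at Cdh20 +148 kb (without replicate 1) and Cdh11 +688 kb (without replicate 2) for p3 at day 6. Between days 4 and 6, Cdh2 +247 kb was not called on centred samples (1.88), with voom (1.89) or on the VST scale (1.98). The other causes were not tested. Of the 241 elements, 142 had a mean of at most 100 normalized counts in the libraries of every fit and were never tested.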
